A study of Saccharomyces cerevisiae with 21 samples.

Results

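The small-subunit cytosolic ribosomal protein genes (RPS genes) of the budding yeast Saccharomyces cerevisiae are described here across biofilms of 7 strains. The genes were chosen by their systematic names, with no use of measured values. All 56 were found among the 7126 features of the count tables, and all 56 passed the filter on low counts. They make up 32 families, of which 24 are paralogue pairs with an A and a B copy and 8 are single-copy genes, among them RPS2, RPS3, RPS12, RPS13, RPS15, RPS20 and RPS31. Of the 56 genes, 36 have an intron in the annotation and 20 have none.

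Polyadenylated RNA was sequenced from biofilms of the filament-forming Sigma1278B background, in 7 groups with 3 libraries each. The groups were the wild type (WT), a dig1 mutant with a hyperfilamentous biofilm, and 5 mutants with hypofilamentous biofilms, which were rtg3, ras2, rim101-531, spt8 and ste12. All 7 strains were grown in YEPD liquid for 16 h at 30 °C, brought to an OD600 of 20 and spotted at 10 µl on YEPGal 2% agar, where they stayed for 24 h. The labels name each mutant by its gene, with the allele suffix 531 for rim101 only. They give no further description of the alleles, of ploidy or of mating type. Whether the 3 libraries of a strain are separate cultures is not in the labels, so the p-values measure the spread of these libraries only, and that spread may be technical.

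The small ribosomal subunit binds messenger RNA and hosts the decoding of codons by transfer RNA. Its proteins sit on a ribosomal RNA core that is usually divided into a head, a platform and a body. In yeast most of these proteins are encoded by duplicated genes, and ribosomal protein genes are known as one of the most tightly co-regulated groups of the genome. Rap1, Fhl1, Ifh1 and Sfp1 act at their promoters, and the protein kinase A and TOR pathways tie their transcription to nutrients and growth.

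The counts per library ran from 2388813 to 3987529, with replicates differing by more than sampling noise in all groups (chi-square per degree of freedom 1.93 to 56.9). The genes that name the mutants checked the labels of dig1, spt8, ras2 and rtg3, where they had 1, 0, 0 and 0 counts over the group against 549, 195, 954 and 319 counts in the wild type. STE12 kept 187 counts in ste12 against 534 in the wild type, and RIM101 kept 1354 counts in rim101-531 against 1647, so STE12 checked its label in part and RIM101 did not check its label. Of the markers of an a-type haploid cell, STE2, STE6, BAR1 and AGA2 were present. MFA2 had no count in any library and MFA1 stayed between 0 and 2.42 CPM, which are counts divided by library size, with TMM factors. The summed level of these 6 markers was 420 to 482 CPM in the wild type, 110 to 128 CPM in ste12 and 1120 to 1356 CPM in dig1. Markers of alpha haploids summed to between 64.2 and 111 CPM and those of sporulation to between 77.3 and 122 CPM over all 21 libraries. Alignment records that were not unique, the class that takes reads shared by near-identical genes, made up 21.2% in the wild type, 27.9% in dig1, 24.3% in spt8 and 18.8% in both ras2 and rtg3.

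The RPS genes took 3.58% to 6.71% of all gene counts in a library. The 3 wild-type libraries were close together, at 4.69%, 4.77% and 4.71%. The rtg3 libraries lay below all of them, at 4.20%, 4.14% and 4.07%. The ste12 libraries lay above them, at 4.99%, 5.66% and 5.95%, as did the rim101-531 libraries, at 5.09%, 6.71% and 6.05%, and the ras2 libraries, at 4.89%, 5.69% and 5.31%. The dig1 libraries spread widely on both sides, at 3.58%, 6.65% and 4.82%, and so did the spt8 libraries, at 3.60%, 5.76% and 4.51%. The library numbered 1 had the lowest share in 6 of the 7 groups and the library numbered 2 the highest in 5, and the labels do not say whether a number marks a shared batch. Fewer cells that make ribosomes and less RPS RNA per cell cannot be told apart in such bulk samples.

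**Figure D1:**
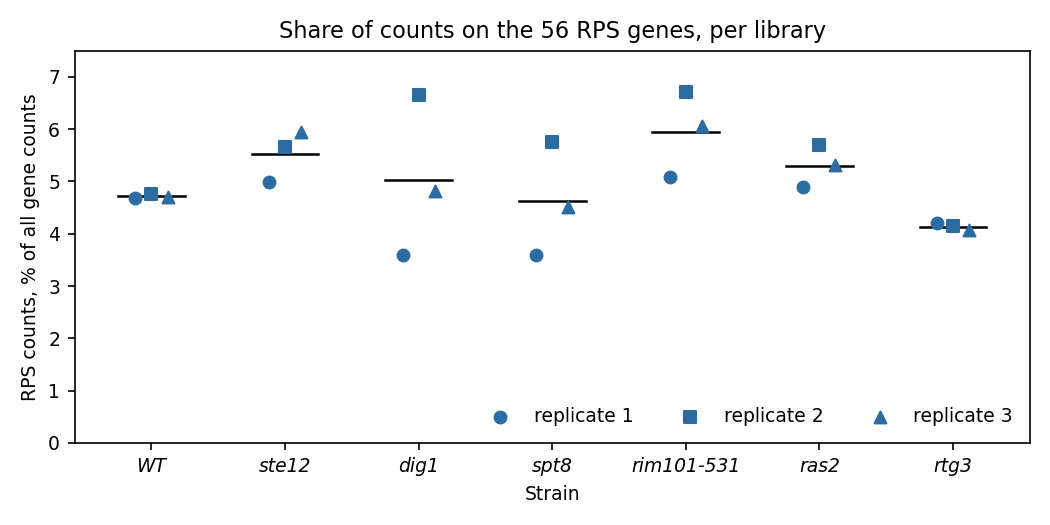
Each point is the share of one library's gene counts that fell on the 56 RPS genes, in percent, with the marker shape giving the replicate number and the bar the mean of the 3 libraries. The wild-type and rtg3 libraries are tight, while dig1 runs from 3.58% to 6.65% and spt8 from 3.60% to 5.76%.

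In the wild type the transcripts differed widely in level. Levels between genes are given in CPM per kilobase of coding positions at which a 50-base stretch occurs once in the genome, because reads from stretches that genes share may be lost and the length of the reads is not given here. RPS31, which encodes a fusion of ubiquitin to the ribosomal protein, stood highest at 7036 ± 437 CPM per kilobase (SD, n = 3). RPS12, a protein of the beak of the head, followed at 5833 ± 202. The libraries of these neighbours did not overlap. The lowest was RPS29A, one copy for a small zinc-binding head protein, at 201 ± 50.5 CPM per kilobase. RPS14B, the minor copy for a platform protein, stood at 379 ± 41.0, and RPS9A, the minor copy for a protein involved in decoding accuracy, at 382 ± 117. The last 2 genes overlapped between libraries, and the highest gene exceeded the lowest 34.9-fold. The median was 2238 CPM per kilobase over all 56 genes, 3715 over the single-copy genes and 1947 over the genes in pairs. With other length measures, chosen after seeing the data, RPS31 ranged from 6285 to 8013 CPM per kilobase and RPS29A from 144 to 341.

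The RPS genes moved up and down together from library to library. Over the 21 libraries, the Pearson correlation of log2 CPM had a median of 0.88 over the 1540 gene pairs, from 0.18 to 0.99. For deviations from the group means, which leave out the differences between strains, the median was 0.93. These points share library, depth and scaling, so the values are a description. RPS18A, a head protein gene, was closest to the other members, at a correlation of 0.99 with the mean of the others, while RPS9A at 0.47 and RPS14B at 0.65 were farthest. Outside the RPS genes, the 3 genes most like their mean were RPL11A (0.99), RPL20B (0.98) and RPL38 (0.98), all large-subunit protein genes.

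A test for any difference among the 7 strains (edgeR quasi-likelihood F test, Benjamini-Hochberg adjusted) passed in 53 of the 56 RPS genes, against 63.5% of all 5786 genes tested. RPS3, RPS4B and RPS14B did not pass. This F test was sensitive to scaling, and 32 members passed with library totals in place of TMM factors, a setting for which the share of all genes is not given here. The 6 comparisons with the wild type share its 3 libraries, so their values are not independent of each other. Log2 fold changes are given as the estimate ± its standard error. The median of all genes lay within 0.03 of 0 in each comparison with TMM factors and shifted to 0.26 in spt8, 0.25 in rtg3 and -0.12 in ste12 with library totals. Relative to that shift, the RPS medians of spt8 and rtg3 were -0.47 and -0.45 under library totals. A change of scaling moves all genes of a library alike, so this return to near the TMM medians was set in advance. It does not show that the calls hold under library totals. No RPS median changed sign.

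**Figure D2:**
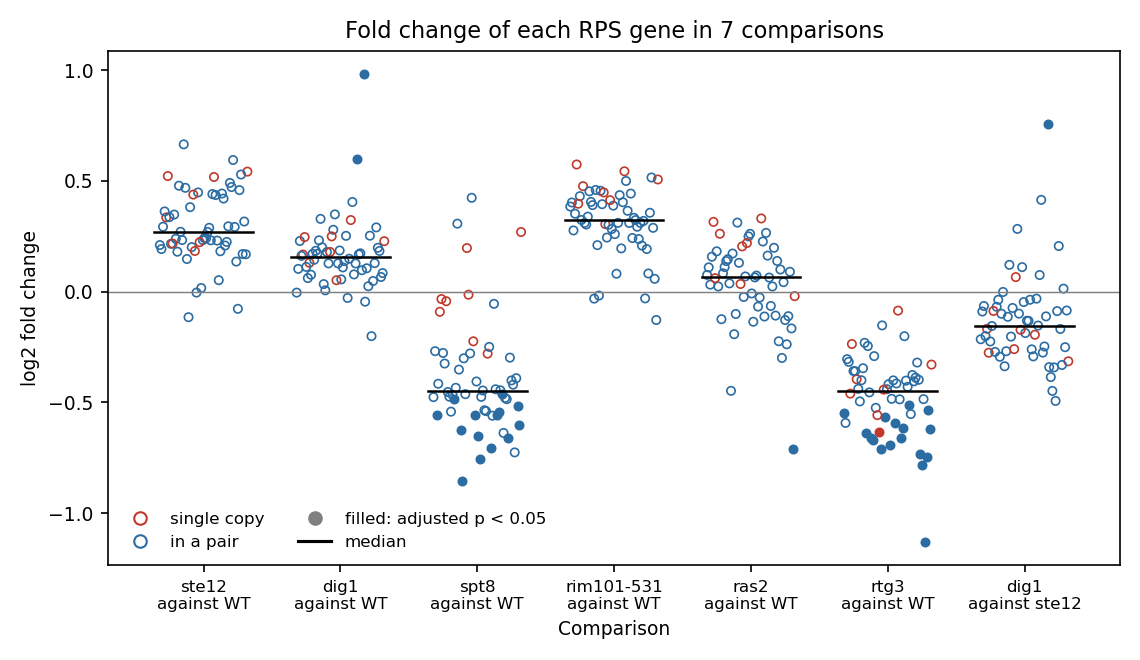
Each circle is the log2 fold change of one RPS gene in one comparison, red for the 8 single-copy genes and blue for the 48 genes in pairs, filled where the adjusted p (edgeR) was under 0.05, and the bar is the median. The rtg3 circles all lie below 0, the red circles stand above the median bar in spt8, and RPS24B stands apart in dig1.

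RPS transcripts were lower in rtg3, a mutant in a transcription factor of the signal from mitochondria to the nucleus, than in the wild type. All 56 genes had a fold change below 0, with a median of -0.45 on the log2 scale against 0.00 over all genes. Lower levels passed the test in 18 of the 56 (32.1%), where 11.2% of all genes did, and no member rose, where 9.32% did. In 52 of the 56 (92.9%) all 3 rtg3 libraries lay below all 3 wild-type libraries, as they did in 21.6% of all genes. The genes that fell were 8 of 22 for head proteins, 1 of 6 for platform proteins and 9 of 28 for body proteins, and they included 1 of the 8 single-copy genes, RPS13.

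The largest fall in rtg3 was in RPS29A (YLR388W, chromosome XII, 898651 to 898821 in R64, without an intron). It stood at 30.0, 17.9 and 25.8 CPM in the wild type and at 8.70, 13.3 and 11.7 CPM in rtg3. The groups did not overlap, and the log2 fold change was -1.13 ± 0.30 (edgeR, adjusted p = 0.0134), a call lost without wild-type replicate 1 or rtg3 replicate 1. Its paralogue RPS29B, for the same zinc-binding head protein, fell by 0.75 ± 0.19 on the log2 scale (edgeR, adjusted p = 0.0106). RPS28A (YOR167C, chromosome XV, 648804 to 649007), one copy for a small head protein, stood at 295, 256.5 and 272 CPM in the wild type and at 161, 177 and 141 CPM in rtg3. All 3 rtg3 libraries were low, and it fell by 0.78 ± 0.18 (edgeR, adjusted p = 0.00364), a call kept in every alternative. RPS27B (-0.73 ± 0.20), for a zinc-binding body protein, and RPS14A (-0.71 ± 0.18), the major copy for a platform protein, fell as well. The single-copy RPS20, for a head protein, was the least changed at -0.09 ± 0.21 (edgeR, adjusted p = 0.798). The number of calls rested on every library: it was 2, 10 and 4 without rtg3 replicate 1, 2 and 3 and 4, 6 and 6 without wild-type replicate 1, 2 and 3, while the median stayed between -0.47 and -0.41. It was 5 with library totals.

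In spt8, a mutant in a subunit of the SAGA coactivator, 14 of the 48 genes in pairs fell and none of the 8 single-copy genes passed the test. The median log2 fold change was -0.45 over the 56 genes, against 0.02 over all genes. Lower levels passed the test in 14 of the 56 (25%), where 14.4% of all genes did, and no member rose, where 11.1% of all genes did. In 30 genes all spt8 libraries lay below all wild-type libraries, a pattern found in 20.5% of all genes, and in no member the reverse, found in 18.6%. The 14 genes were 6 of 22 for head proteins (RPS10A, RPS10B, RPS16A, RPS17A, RPS17B and RPS25A), 1 of 6 for platform proteins (RPS1A) and 7 of 28 for body proteins (among them RPS21B, RPS23B, RPS24A, RPS27A, RPS30A and RPS30B).

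RPS10B (YMR230W, chromosome XIII, 732414 to 733141), one copy for a protein of the beak of the head, fell most in spt8. It stood at 298, 251 and 259 CPM in the wild type and at 148, 163 and 135 CPM in spt8. The groups were well apart, and it fell by 0.85 ± 0.20 on the log2 scale (edgeR, adjusted p = 0.00372), a call kept in every alternative. RPS17B (YDR447C, chromosome IV, 1354829 to 1355553), for another head protein, stood at 495, 509.7 and 502.5 CPM in the wild type and at 243, 359.8 and 289.6 CPM in spt8. It fell by 0.76 ± 0.21 (edgeR, adjusted p = 0.0132), with replicate 2 the highest of the spt8 libraries, and the call was lost without spt8 replicate 1. Its paralogue RPS17A fell by 0.65 ± 0.18 (edgeR, adjusted p = 0.0106).

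The 48 genes in pairs had a median of -0.47 in spt8, with 14 lower, and the 8 single-copy genes had a median of -0.04, with none called. RPS31 stood at 2776, 4231 and 3424 CPM in spt8 and at 3079, 2726 and 2849 CPM in the wild type, so that the groups overlapped. Its log2 fold change was 0.27 ± 0.19 (edgeR, adjusted p = 0.319). RPS12 was at 0.20 ± 0.20, and RPS20 (-0.28 ± 0.21) and RPS15 (-0.22 ± 0.18), also for head proteins, were the lowest of the single-copy genes. Of the genes in pairs, RPS14B (0.42 ± 0.23) and RPS9A (0.31 ± 0.27) were above 0, and neither passed the test. The gap does not depend on scaling, because it lies within a library. For log2 CPM minus the wild-type mean of each gene, the single-copy median minus the median of the pairs was 0.38, 0.42 and 0.46 in the spt8 libraries. It was 0.02, -0.03 and 0.00 in the wild type, where subtracting the wild-type mean puts it near 0 in advance. It lay between 0.02 and 0.19 in the other 15 libraries, with rim101-531 at 0.14 to 0.15 and ras2 at 0.14 to 0.19.

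Reads shared between A and B copies concern the pairs and not the single-copy genes. Of the single-copy genes, RPS31 has 100% unique 50-base stretches but 94.6% at a shorter length, so some of its reads may be shared with other genes. Records that were not unique made up 24.3% in spt8 against 21.2% in the wild type. The 20 paired genes with at least 99% unique 50-base stretches had a median of -0.48 in spt8, and the 8 paired genes with under 65% had -0.45. The number of calls in spt8 was 1, 32 and 4 without spt8 replicate 1, 2 and 3 and 7, 8 and 7 without wild-type replicate 1, 2 and 3, and the median ran from -0.65 to -0.28. With library totals 4 genes passed, and they went both ways: RPS10B and RPS17B were lower while RPS14B and RPS31 were higher.

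**Figure D3:**
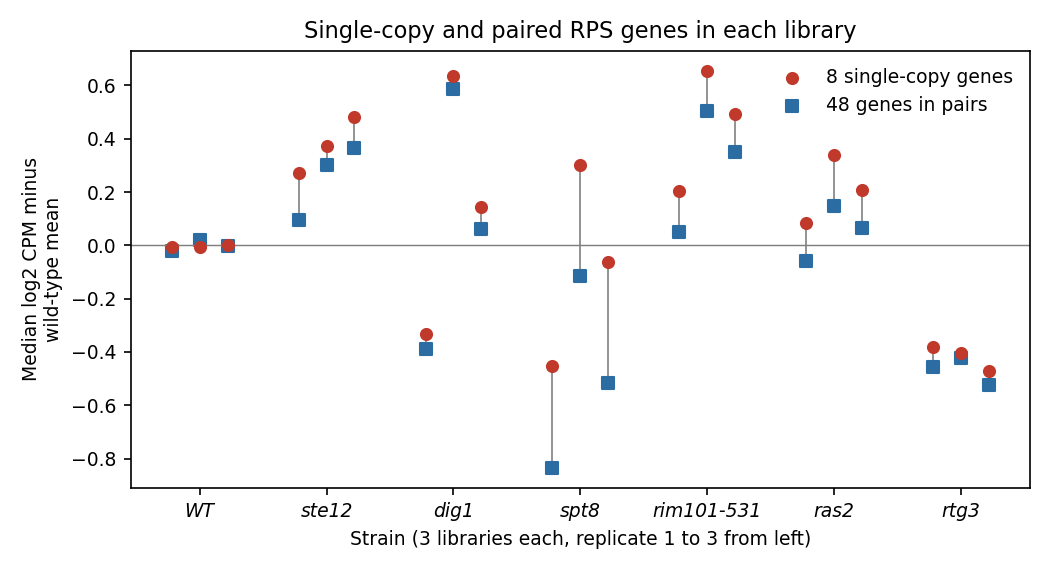
For each library the red point is the median over the 8 single-copy RPS genes and the blue square the median over the 48 genes in pairs, of log2 CPM minus the wild-type mean of the gene. In all 3 spt8 libraries the red point stands 0.38 to 0.46 above the blue square, while the height of both varies between libraries.

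In dig1, a mutant in a repressor of Ste12, the RPS genes had a median log2 fold change of 0.16 against -0.01 over all genes. Higher levels passed the test in 2 of the 56, RPS24B and RPS22B, where 8.02% of all genes did, and none fell, where 7.69% did. These were also the only 2 members in which all dig1 libraries lay above all wild-type libraries, as 12.8% of all genes did. The median per library, relative to the wild-type mean, was -0.38, 0.60 and 0.09 in dig1 replicate 1, 2 and 3. The median over the genes turned to -0.11 without replicate 2 and rose to 0.40 without replicate 1. The number of calls was 4 without dig1 replicate 1 and 1 without dig1 replicate 2, dig1 replicate 3 or any of wild-type replicate 1, 2 and 3.

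RPS24B (YIL069C, chromosome IX, 231553 to 232369 in R64) is one of the 2 copies for a protein of the body, and its coding sequence is interrupted by an intron. It stood at 242, 318 and 279.5 CPM in the wild type and at 367, 782 and 510.1 CPM in dig1. It was higher in all 3 dig1 libraries and rose by 0.98 ± 0.22 on the log2 scale (edgeR, adjusted p = 0.00298), a call lost only with both groups alone in the fit (adjusted p = 0.0755). RPS24A stood at 755, 791 and 815 CPM in the wild type and at 614, 1121 and 791 CPM in dig1, and the groups overlapped (0.10 ± 0.17; edgeR, adjusted p = 0.775). RPS24B was also the only member that passed between dig1 and ste12, where 11.6% of all genes were higher and 10.1% lower. It was higher in dig1 by 0.76 ± 0.21 (edgeR, adjusted p = 0.0146), though 1 dig1 library lay within the range of the ste12 libraries. This call was lost with both groups alone in the fit, without ste12 replicate 1 and without dig1 replicate 2. In that comparison the RPS median was -0.15, it turned to 0.08 without dig1 replicate 1, and 16 members passed, all lower in dig1, without dig1 replicate 2. No member was without overlap between dig1 and ste12, against 16.2% of all genes higher and 14.7% lower.

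RPS24B is the only RPS gene on chromosome IX, and the genes of that chromosome were higher in dig1 as a whole. Of its 196 tested genes, 193 had a fold change above 0, 149 passed as higher and 0 as lower, with a median of 0.80 against -0.02 on the other chromosomes. The chromosome IX median relative to the wild-type mean was 0.79, 0.78 and 0.84 in the dig1 libraries and between -0.11 and 0.02 in the other 18. The neighbours of RPS24B, MAM33 and SEC6, were at 0.75 and 0.78 in dig1. Chromosome III, which carries RPS14A, had a median of 0.24 in dig1, and RPS14A was at 0.28 ± 0.18. The 4 large-subunit genes on chromosome IX were RPL2B at 1.03, RPL40A at 0.93, RPL16A at 0.93 and RPL34B at 0.95, and each passed as higher (edgeR). How far the difference over chromosome IX accounts for the RPS24B value was not tested. The ratio of RPS counts to RPL counts was 0.785 ± 0.009 in the wild type and 0.730 ± 0.004 in dig1, and without the genes on chromosome IX it was 0.846 ± 0.012 and 0.827 ± 0.006 (SD, n = 3).

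**Figure D4:**
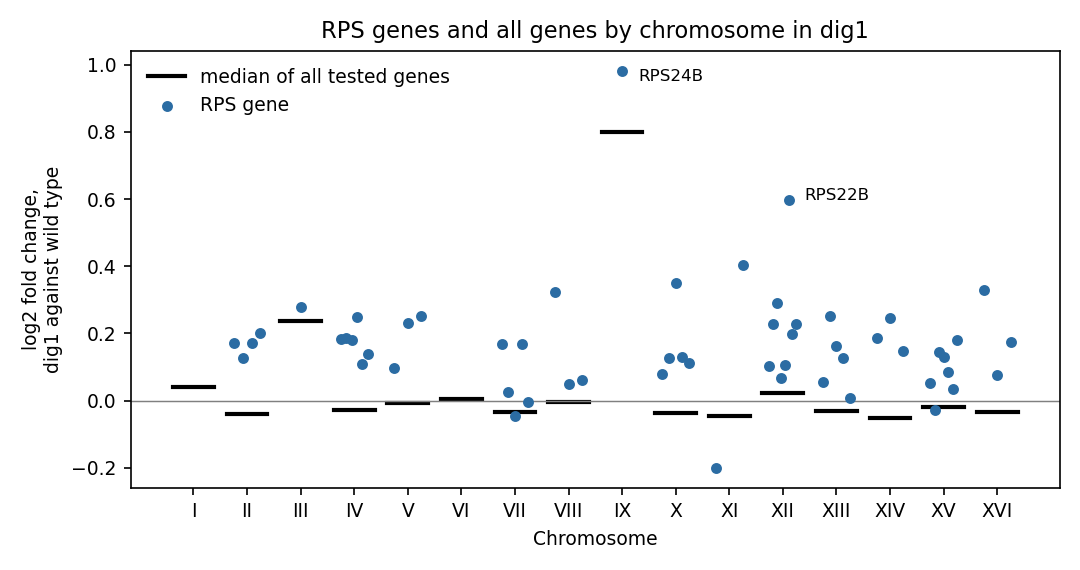
Black bars give the median log2 fold change of all tested genes on each chromosome between dig1 and the wild type, and blue points the RPS genes there. The median is 0.80 on chromosome IX, where RPS24B lies, and RPS22B stands apart on chromosome XII without such a shift.

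RPS22B (YLR367W, chromosome XII, 856442 to 857317) is one copy for a protein of the body, and the intron in its coding sequence holds the small nucleolar RNA SNR44. It stood at 336, 301 and 344 CPM in the wild type and at 413, 607 and 464 CPM in dig1. All 3 dig1 libraries were higher, and it rose by 0.60 ± 0.19 on the log2 scale (edgeR, adjusted p = 0.0419). RPS22A was at 0.13 ± 0.21 (edgeR, adjusted p = 0.76). The call was lost with library totals, with both groups alone in the fit and without any one of the wild-type libraries, dig1 replicate 2 or dig1 replicate 3.

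In ste12, which is mutated in the factor that carries filamentation signals to promoters, and in rim101-531, the RPS genes tended to lie above the wild type without passing the test. In ste12 the median log2 fold change was 0.27 against -0.03 over all genes, and 53 of 56 were above 0. None passed (edgeR), where 9.97% of all genes did (4.77% higher and 5.2% lower), 11 had an unadjusted p under 0.05, and DESeq2 called 1. In 31 members (55.4%) all ste12 libraries lay above all wild-type libraries, against 12.3% of all genes. RPS31 stood at 3951, 3727 and 4923 CPM in ste12, all above its wild-type libraries (0.54 ± 0.19; edgeR, adjusted p = 0.0768). Without ste12 replicate 1, 1 member passed. In rim101-531 the median was 0.32 against -0.01 over all genes, and 52 of 56 were above 0. None passed with edgeR, where 3.08% of all genes did (1.28% higher and 1.8% lower), 12 had an unadjusted p under 0.05, and DESeq2 called 0. In 26 members all rim101-531 libraries lay above the wild type, against 11.1% of all genes, and in none below, against 12.7%. RPS2, which encodes a body protein at the entry of the messenger RNA channel, had the highest value at 0.57 ± 0.21 (edgeR, adjusted p = 0.157).

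In ras2, a mutant in a GTPase upstream of protein kinase A, 1 RPS gene fell. The median log2 fold change was 0.06 against -0.01 over all genes. Lower levels passed in 1 of the 56, RPS30B, where 14.9% of all genes did, and none rose, where 10.3% did. RPS30B (YOR182C, chromosome XV, 678191 to 678793), one copy for a small basic protein of the body, stood at 212, 244 and 231 CPM in the wild type and at 147, 145 and 129 CPM in ras2. The groups were apart, and it fell by 0.71 ± 0.17 on the log2 scale (edgeR, adjusted p = 0.00416), a call kept in every alternative. RPS30A stood at 257, 240.2 and 252 CPM in the wild type and at 251, 210.03 and 207 CPM in ras2, with overlap (-0.17 ± 0.17; edgeR, adjusted p = 0.511). In 9 members all ras2 libraries lay above the wild type and in 6 below, against 20.8% and 22.8% of all genes.

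The balance between paralogues is described by the share of a pair's counts that fell on the A copy. In the wild type the A copy held 11.6% to 91.4% of the counts of its pair, over 50% in 15 pairs and under 50% in 9. Over the 7 groups, the range of the mean A share had a median of 4.81 percentage points over the 24 pairs. The 4 pairs with the widest range were RPS24 (13.5 points), RPS28 (10.6), RPS22 (10.3) and RPS30 (9.44). For these shares 3 libraries against 3 cannot give an exact two-sided permutation p below 0.1, the value that any groups without overlap reach. The 4 pairs were picked by the range of these same shares, which favours groups without overlap, so their p-values are descriptions. How often groups lay apart over all 24 pairs is not given here. The pairs differ at scattered bases of their coding sequences, which is what lets reads be told apart. The stretches shown are from the R64 reference (RefSeq), with the bases that differ between the copies in capitals.
RPS24A (chrV:307131-307190, + strand, coding bases 343 to 402): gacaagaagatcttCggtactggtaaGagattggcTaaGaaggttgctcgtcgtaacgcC
RPS24B (chrIX:231559-231618, - strand, coding bases 343 to 402): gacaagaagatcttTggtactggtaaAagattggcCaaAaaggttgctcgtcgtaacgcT
RPS22A (chrX:75201-75260, - strand, coding bases 43 to 102): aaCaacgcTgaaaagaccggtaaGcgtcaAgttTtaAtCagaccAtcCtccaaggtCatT
RPS22B (chrXII:856484-856543, + strand, coding bases 43 to 102): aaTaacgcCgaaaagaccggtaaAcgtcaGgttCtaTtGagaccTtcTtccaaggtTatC
RPS30A (chrXII:712639-712698, - strand, coding bases 31 to 90): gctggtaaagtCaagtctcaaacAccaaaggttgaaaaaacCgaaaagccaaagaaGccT
RPS30B (chrXV:678293-678352, - strand, coding bases 31 to 90): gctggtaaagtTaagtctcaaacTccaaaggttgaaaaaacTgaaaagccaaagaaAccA
RPS28A (chrXV:648948-649007, - strand, coding bases 1 to 60): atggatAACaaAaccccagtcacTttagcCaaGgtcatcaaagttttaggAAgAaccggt
RPS28B (chrXII:673131-673190, + strand, coding bases 1 to 60): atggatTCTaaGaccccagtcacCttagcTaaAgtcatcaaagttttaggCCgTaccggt

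Over the whole coding sequence the RPS24 copies differ at 12 of 408 bases, the RPS30 copies at 9 of 192, the RPS22 copies at 41 of 393 and the RPS28 copies at 24 of 204. Of their 50-base stretches, 61.6% are unique in RPS24 and 81.8% in RPS30, while in RPS22 and RPS28 at least 99.1% are. In RPS24 the A copy held 75.7%, 71.3% and 74.5% of the pair's counts in the wild type and 62.6%, 58.9% and 60.8% in dig1. The dig1 libraries lay below all others, and the means differed by -13.1 points (exact permutation test, two-sided p = 0.1). The means of the other mutants and the wild type ran only from 71.4% in ras2 to 74.3% in rtg3. RPS24B lies on chromosome IX, whose genes had a median log2 fold change of 0.80 in dig1. How far that accounts for the share in dig1 was not tested. In RPS22 the A share was 62.9% ± 3.07 in the wild type (SD, n = 3), 54.2% ± 5.04 in dig1 and 54.5% ± 0.776 in spt8. The dig1 and the spt8 libraries did not overlap the wild type (exact permutation p = 0.1 each).

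In RPS30 the A share was 54.8%, 49.6% and 52.2% in the wild type and 63.1%, 59.2% and 61.7% in ras2, without overlap (exact permutation p = 0.1). In RPS28, whose B copy is known to regulate the stability of its own messenger RNA, the A share was 62.0% ± 0.889 in the wild type, 53.2% ± 3.60 in ste12 and 63.8% ± 0.995 in ras2 (SD, n = 3). The ste12, ras2, rim101-531 (57.5%) and rtg3 (57.2%) libraries lay apart from the wild type (exact permutation p = 0.1 each). RPS9 and RPS14, pairs with a minor copy, were picked after their values were seen. RPS9A held 11.6% ± 3.17 of its pair in the wild type, 17.2% ± 0.487 in spt8 and 7.88% ± 0.305 in ras2. Both groups lay apart from the wild type (exact permutation p = 0.1 each). The A copy of RPS14 was at 91.4% in the wild type and at its lowest, 86.7%, in spt8.

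**Figure D5:**
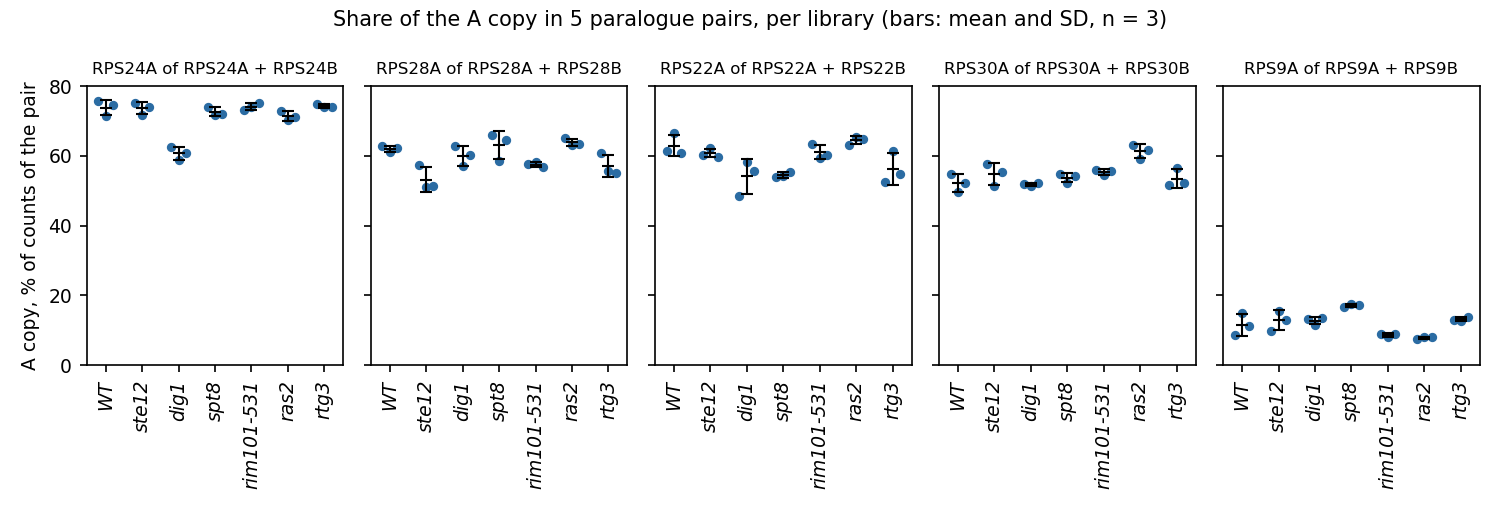
Each panel gives, for 1 pair, the share of the pair's counts that fell on the A copy in percent, with a point per library and bars for the mean and SD over the 3 libraries of each strain. RPS24A stands at 73.8% in the wild type and 60.8% in dig1, and RPS30A at 52.2% in the wild type and 61.4% in ras2. RPS24B lies on chromosome IX, whose genes were higher in dig1 as a whole.

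Upstream of the coding sequence, the Rap1 motif occurred on either strand in the 500 bases before the start codon of 25 of the 56 RPS genes (44.6%), against 6.0% of 6000 genes. The core GACGC of the Fhl1 motif occurred in 27 (48.2%) against 30.4%. The Ste12 motif TGAAACA occurred in 3 (5.36%) against 12%, and the motif GGTCAC of Rtg1 and Rtg3 in 6 (10.7%) against 9.52%. A match is a description and not a binding site. The genes with the Rap1 motif had a median log2 fold change of -0.52 in spt8 and -0.51 in rtg3, and those without had -0.39 and -0.40. The stretches shown, from the R64 reference, have a single match to the Rap1 motif in capitals. They are for the 2 genes with the largest falls in spt8 and for RPS24A, of the pair with the widest range of shares. In RPS10B the marked match lies on the opposite strand. The RPS10B and RPS17B stretches each hold a further match on the strand shown, before the capitals, that is left unmarked.
RPS10B (chrXIII:732199-732258, + strand, 190 to 181 bases before the start codon): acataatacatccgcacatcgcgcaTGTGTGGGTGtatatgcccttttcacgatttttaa
RPS17B (chrIV:1355816-1355875, - strand, 297 to 288 bases before the start codon): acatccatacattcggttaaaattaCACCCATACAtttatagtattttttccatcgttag
RPS24A (chrV:305961-306020, + strand, 337 to 328 bases before the start codon): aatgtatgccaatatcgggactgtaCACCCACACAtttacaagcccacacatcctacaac

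Other genes of the ribosome and of translation were read from lists chosen by function. The large-subunit proteins, 80 tested, had medians near those of the RPS genes, at 0.32 in ste12, 0.17 in dig1, -0.37 in spt8, 0.36 in rim101-531, 0.11 in ras2 and -0.44 in rtg3. In rtg3, 15 of the 80 fell (18.8%, against 11.2% of all genes) and none rose (against 9.32%), with RPP1B (-0.96 ± 0.21) and RPP0 (-0.87 ± 0.17), both of the ribosomal stalk, among the lowest. In spt8, 9 of the 80 fell (11.2%, against 14.4% of all genes) and 1 rose (1.25%, against 11.1%), which was RPL7B (0.97 ± 0.25). The 56 assembly factors of the small subunit had a median of -0.38 in rtg3 with 1 lower, but 0.10 in spt8 and -0.03 in rim101-531 with none called (edgeR). Of the 33 translation factors, 9 fell (27.3%) and 1 rose (3.03%) in rtg3, against 11.2% and 9.32% of all genes, and the median was -0.32. Among them ASC1, which encodes a small-subunit protein outside the RPS names, fell by 1.06 ± 0.25 on the log2 scale. Of the 27 regulators of ribosomal protein genes, 7 rose (25.9%, against 10.3% of all genes) and 2 fell (7.41%, against 14.9%) in ras2. Those that rose included ABF1 (0.73 ± 0.11) and TBF1 (0.61 ± 0.11), both encoding general regulatory factors. In rtg3 4 regulators rose (14.8%, against 9.32% of all genes) and none fell (against 11.2%). Those that rose in rtg3 included YAK1 (0.53 ± 0.16), HMO1 (0.41 ± 0.09) and RAP1 (0.33 ± 0.09).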

How the data were processed

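The labels gave each library its group and replicate number. Per the labels' protocols, hot acid phenol was used for extraction, and TruSeq libraries were built from polyadenylated RNA. The submitters' processing notes name bcl2fastq, TopHat2 2.0.19, HTSeq 0.6.1 and build R64. Strand setting, read length and annotation version were not given in the sources used here. Files deposited by the authors hold raw counts per gene, as whole numbers, 1 file for each library. Records without a gene (40.1% to 47.8% of a library) were left out. Sigma1278B reads were set against the reference of another strain.

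Counts were fitted with edgeR 4.0.16 (R 4.3.3): filterByExpr by group, TMM factors (0.893 to 1.16), 1 quasi-likelihood model over 21 libraries, and Benjamini-Hochberg adjustment over 5786 genes at 0.05. The procedure was tested on simulated data. Counting error is only part of the spread, and members had 33 to 14407 counts per library. A copy shares were compared by exact permutation tests. Alternatives were DESeq2 1.42.0, other scalings, no filter, a replicate block, both groups alone, each library left out and, added after seeing the data, other length measures. Members and lists were chosen with earlier results of these data known. Values per library are given for the 2 largest rises and falls that passed in each comparison, the 4 pairs with the widest A share range (at least 200 counts) and the 3 highest and lowest wild-type levels. Some genes are also named from the lists, and some genes that the rule picks are not reported here.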

Additional observations from a re-analysis of the deposited data

Results flagged for a closer look

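The share of alignment records that were not unique lies outside the gene counts and was higher than in the wild type in 2 strains. It was 27.9% of records in dig1 (27.3% to 28.6% over the 3 libraries) and 24.3% in spt8 (23.5% to 25%), against 21.2% in the wild type (20.8% to 21.6%). The libraries did not overlap the wild type. These records include alignments of reads that near-identical paralogues share, but also those of other repeated sequence, and which genes they came from was not tested.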

How the results depend on the processing

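No call of a member reversed, and 3 of the 36 calls held in every alternative: RPS10B in spt8, RPS30B in ras2 and RPS28A in rtg3. With library totals, 1 member passed in dig1, 4 in spt8, 5 in rtg3 (median -0.20) and 32 among the 7 strains. With both groups alone in the fit, 11 passed in ste12, 0 in dig1, 6 in ras2, 49 in rtg3 and 0 between dig1 and ste12. DESeq2 called 1 in ste12. Leaving out 1 library gave 0 to 1 calls in ste12, 1 to 4 in dig1 (median -0.11 to 0.40), 1 to 32 in spt8, 2 to 10 in rtg3 and 1 to 16 between dig1 and ste12 (median -0.44 to 0.080). With the replicate number as a block, 6 passed in ste12, 36 in spt8 (35 lower, 1 higher), 1 in rim101-531, 3 in ras2, 39 in rtg3 and 4 between dig1 and ste12. The share of all genes that passed is not given here for any alternative. The counts of members under the alternatives therefore do not show whether members changed more than other genes there. The main fit did not take the numbers as pairing the samples. Over all genes, deviations of same-numbered libraries correlated at -0.40 to 0.65 over 63 pairs, with 30 over 0.1. Pairs with an rtg3 library ran from -0.40 to 0.011. Pairs among the other strains ran from -0.041 to 0.65 and held all 30 over 0.1, so same-numbered libraries often deviated together there. Over all strains the median was 0.038 for pairs of the same number and -0.020 for pairs of different numbers. The RPS share alone was lowest in replicate 1 in 6 of 7 groups and highest in replicate 2 in 5, and whether a batch lies behind this was not tested. Why the calls differed between alternatives was not tested. Of 24 levels per kilobase with other length measures, 15 moved by more than 1 SD. Stretches shared by paralogues limit pairs such as RPS6 most.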

Other observations

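Further pairs differed in balance between strains by less than the 4 widest. The A copy of RPS27, a pair for a zinc-binding body protein, had group means from 17.2% in spt8 to 25.4% in rtg3, with 21.1% in the wild type. The A copy of RPS21, for another body protein, ran from 51.4% in the wild type to 59.5% in spt8, and that of RPS29 from 15.5% in rtg3 to 23.5% in ste12. The steadiest pair was RPS18, for a head protein, at 47.8% to 49.9%. These ranges are descriptions, and the differences were not tested.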
